A study of Mus musculus with 6 samples.

Results

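The pre-B cell receptor and the signalling steps next to it were followed, gene by gene, in a mouse model of acute lymphoblastic leukaemia, pre-B cells that the BCR-ABL1 fusion kinase had transformed. The members were 36 genes named by symbol, grouped here by role, out of 19936 genes with a probe set of 1 symbol on the arrays. Of the 36, 35 were measured, each by a single probe set, and Lyn was not analysed here. The 2 groups were 3 arrays of cells transduced with pMIG-IKZF1, a retroviral vector that carries the Ikaros gene, and 3 arrays of cells transduced with the empty vector pMIG. All 6 samples came from wild-type C57Bl6 mice aged 4 weeks and carried BCR-ABL1. Transduced cells were sorted for green fluorescent protein 3 days after transduction, and total RNA was hybridised to Affymetrix arrays. The labels name neither the species nor the isoform of the IKZF1 insert, nor how many primary cultures or clones the cells represent, so the p-values rest on a spread between arrays that may be technical.

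The pre-B cell receptor consists of an immunoglobulin mu heavy chain, a surrogate light chain made of the lambda5 and VpreB proteins, and the signalling pair CD79A and CD79B. Src family kinases phosphorylate the CD79 tails, SYK docks there and is activated, and adaptors such as BLNK bring BTK and phospholipase C gamma 2 to the membrane, while receptors such as CD22, CD72 and Fc gamma receptor IIb recruit the phosphatases SHP-1 and SHIP-1 that damp the signal. In pre-B cells the receptor first drives expansion and is then silenced along with its surrogate light chain, and Ikaros is known to act on several of these genes.

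Among the surrogate light chain genes, sequences upstream of the starts are shown for the 2 VpreB genes. These are near copies of each other, while their values differ below. A stretch of 106 bases that ends at the annotated start of Vpreb1 matched a stretch upstream of the annotated Vpreb2 start with 2 differences, an identity of 98.1%. The differences are G12T and C104T, with the Vpreb1 base first, the position counted from 1 at the 5′ end of the stretch, and the Vpreb2 base last. They are in capitals in both sequences, which are RefSeq's on GRCm38.p6, at chr16:16869256-16869361 on the minus strand for Vpreb1 and chr16:17980315-17980420 on the plus strand for Vpreb2, each written 5′ to 3′.
Vpreb1: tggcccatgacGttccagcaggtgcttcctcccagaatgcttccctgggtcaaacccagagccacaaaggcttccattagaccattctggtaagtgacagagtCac
Vpreb2: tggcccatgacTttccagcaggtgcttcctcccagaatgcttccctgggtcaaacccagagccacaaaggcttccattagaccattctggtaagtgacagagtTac
The near identity continued past the annotated Vpreb1 start, with 3 differences over the 156 bases compared. How much farther it runs was not measured. Both stretches hold 1 match to GGGAA, the core of the sequence that Ikaros binds, on the strand opposite to the gene at base 41. How far a probe set of one VpreB gene also reads transcripts of the other was not tested.

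The 250 bases before the start of Igll1, which encodes lambda5, are shown for comparison because Igll1 also had lower values on all IKZF1 arrays. They lie at chr16:16863986-16864235 on the minus strand, and the capitals mark the only match to CCCNNGGG, the palindromic core of the sequence bound by the B-lineage factor EBF1.
Igll1: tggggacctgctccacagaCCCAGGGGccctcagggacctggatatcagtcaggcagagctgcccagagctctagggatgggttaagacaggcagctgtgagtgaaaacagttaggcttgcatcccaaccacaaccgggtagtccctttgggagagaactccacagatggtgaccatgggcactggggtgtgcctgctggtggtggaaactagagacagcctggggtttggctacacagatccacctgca
This window holds no GGGAA on either strand, which says only that these letters are not in it. Searched on both strands of the 250 bases before each start, GGGAA was found for 20 of the 31 members with a window, a share of 64.5%, against 59.4% of the 27025 genes with one. CCCNNGGG was found for 6 of the 31 members, a share of 19.4%, against 13.4% of all genes.

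The values are given as log2(intensity + 1), and differences are IKZF1 minus empty vector. The supplied gene was checked first: Ikzf1 read 13.09, 13.14 and 13.06 on the IKZF1 arrays and 11.85, 11.78 and 11.98 on the empty vector arrays. All IKZF1 arrays lay above all empty vector arrays, by 1.23 ± 0.07 on average (SE, n = 3 per group; adjusted p = 0.00206 in limma, by Benjamini-Hochberg over all genes). As a check of the cell type, the 11 measured pre-B cell markers all lay above the background, and none passed the test between groups. The background was set at the 95th percentile of 1194 olfactory and vomeronasal receptor genes (log2 6.18). Markers of other cells lay above it too: 5 of 8 for T cells, 4 of 4 for plasma cells, 2 of 4 for erythroid cells, 1 of 5 for NK cells and 2 of 4 for stroma. None of these passed between groups in the main fit. With the replicate number as a block in the fit, 1 plasma cell marker and 1 stroma marker were called higher, where 3.36% of all genes were. The plasma cell markers differed by 1.87 (Jchain), 1.17 (Prdm1), -0.01 (Sdc1) and -0.32 (Xbp1). Of 10 granulocyte and monocyte markers 7 lay within the background, but Ly6g, a granulocyte surface marker, was called higher (mean 10.08 in the IKZF1 group and 5.61 in the empty vector group), and the summed intensity of the list was 1294 to 1811 on the IKZF1 arrays and 557 to 602 on the empty vector arrays. Ly6g carried that gap: the other 9 markers summed to 475 to 574 on the IKZF1 arrays and 507 to 560 on the empty vector arrays. Of the other two above the background, Lyz2 averaged 5.95 in the IKZF1 group and 6.42 in the empty vector group, and Cebpe 6.47 in the IKZF1 group and 6.48 in the empty vector group. The part of this in the results below was not tested. Fgr, a Src family kinase gene of myeloid cells, was the only member within the background, at 5.63 in the IKZF1 group and 5.67 in the empty vector group.

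The array called empty vector 3 stood apart from the others, at 41.7 on the first principal component of all genes where the other 5 lay between -24.5 and 2.73. It differed from the mean of the other empty vector arrays by over 0.5 on the log2 scale for 6 of the 35 members, a share of 17.1%, against 8.39% of all genes. Of the markers above, 4 of 4 for plasma cells, 4 of 11 for pre-B cells and 1 of 8 for T cells had such a gap. Among the members, empty vector 3 was low for Lat2 (-1.49), Cd22 (-1.16), Plcg2 (-0.82), Cd72 (-0.59) and Fcgr2b (-0.52), and high for Bank1 (0.79). Results on these genes are therefore given with and without it.

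Of the 35 members, 1 rose, Blk, and 34 did not pass an adjusted p of 0.05 in limma over all genes. The call rate was 2.25% over all genes tested, 1.12% higher and 1.13% lower, so a single call among 35 members is near that background. Same-numbered arrays of both groups varied together, and with replicate number as a block the calls were 5 of 35, with Blk, Syk, Vav2 and Fcgr2b higher and Vpreb2 lower, where 7.21% of all genes were called (3.36% higher and 3.85% lower). At an unadjusted p of 0.05, 11 members passed, where 18.4% of all genes did. Of these 8 were higher, against 9.58% of all genes, and 3 lower, against 8.84%. The IKZF1 arrays lay entirely above the empty vector arrays for 11 members and entirely below them for 4, against 15.2% and 11.3% of all genes (15 members in all, against 26.5%). The median difference of the members was 0.07, against 0.03 for all genes, with values from -0.38 for Vpreb2 to 0.70 for Cd22.

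**Figure D1:**
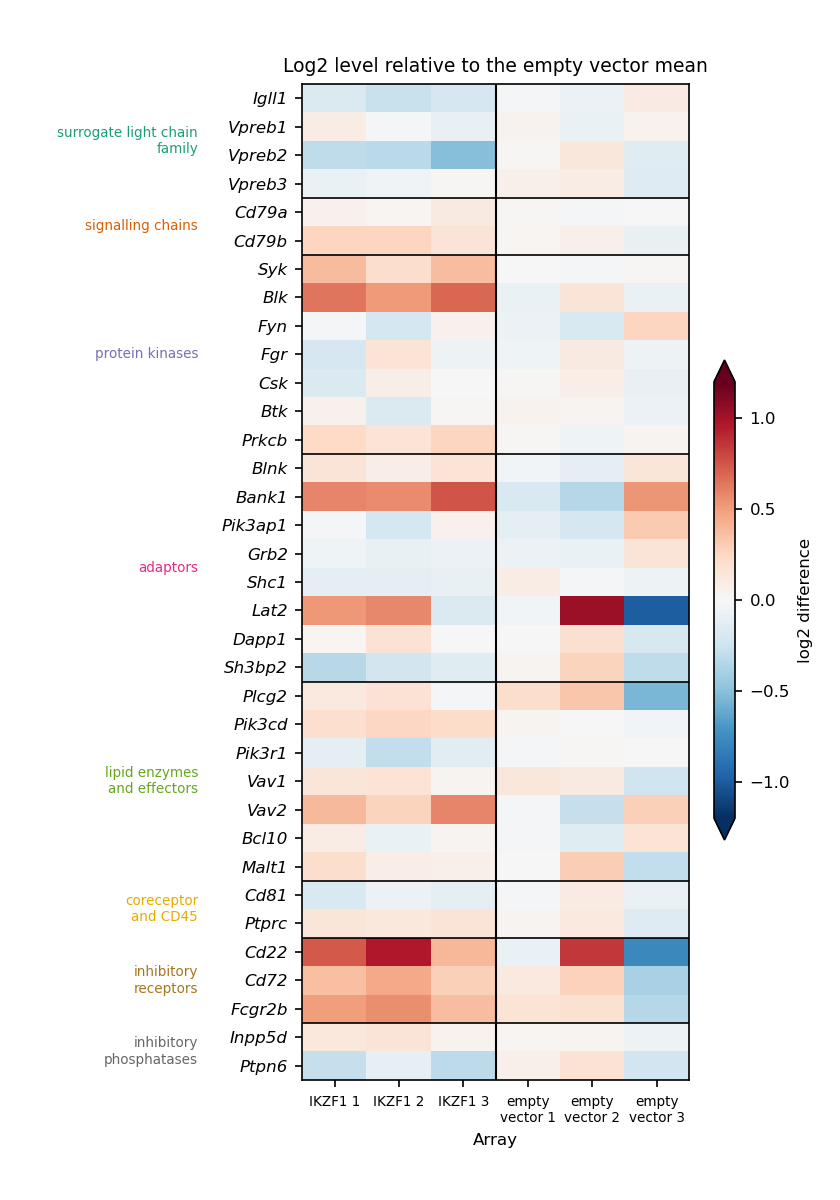
Log2 level of each of the 35 members on each array, minus the mean of the 3 empty vector arrays, with rows grouped by role and IKZF1 arrays on the left. Red is higher and blue lower. Blk, Syk, Prkcb and Pik3cd are red on all IKZF1 arrays, Vpreb2 and Igll1 blue, and empty vector 3 is blue for Lat2, Cd22, Plcg2, Cd72 and Fcgr2b.

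The surrogate light chain genes had lower or level values under IKZF1, and all 4 differences were below 0 (median -0.13). Those of Vpreb1 and Vpreb3 were small and turned above 0 after quantile normalization (0.010 and 0.033). Of the 4 genes, 0 passed without the block and 1 with it, where 7.21% of all genes passed with it. The groups did not overlap for 2 of them, against 26.5% of all genes. Vpreb2, one of the genes for the VpreB part of the surrogate light chain, read 10.03, 10.01 and 9.82 on the IKZF1 arrays and 10.34, 10.46 and 10.19 on the empty vector arrays. All IKZF1 arrays were lower, with differences of -0.32, -0.45 and -0.36 between arrays of equal number. The difference was -0.38 ± 0.10 (SE, n = 3 per group; limma adjusted p = 0.111, and 0.0301 with the replicate block), a change of -23.0% in intensity. Without empty vector 3 it was -0.45, with an adjusted p of 0.0465, and over all alternatives the adjusted p ran from 0.0258 to 0.353.

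Vpreb1, the other VpreB gene, read 11.17, 11.07 and 10.99 on the IKZF1 arrays and 11.12, 11.01 and 11.12 on the empty vector arrays. The groups overlapped, and the difference of -0.01 had a 95% interval of -0.18 to 0.17 (adjusted p = 0.967). Set against each other within each array, the log2 value of Vpreb2 minus that of Vpreb1 was -1.15, -1.06 and -1.17 on the IKZF1 arrays and -0.78, -0.55 and -0.94 on the empty vector arrays. It was thus lower on every IKZF1 array, with a mean difference of -0.37. The pairs were chosen with the values known, and the 2-sided exact permutation p was 0.1, which no comparison of 3 arrays with 3 can go below, for this and for the like comparison of Igll1 with Vpreb1, among 3 such pairs compared.

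Igll1, the lambda5 gene whose upstream sequence is given above, read 13.70, 13.61 and 13.67 on the IKZF1 arrays and 13.85, 13.80 and 13.97 on the empty vector arrays. The groups did not overlap, and the difference of -0.21 ± 0.07 (SE, n = 3 per group) did not pass, with a limma adjusted p of 0.175. In bulk RNA fewer cells with a transcript and less of it per cell cannot be told apart. Vpreb3, which encodes a VpreB-related protein that binds mu chains inside the cell, read 13.37, 13.40 and 13.46 on the IKZF1 arrays and 13.51, 13.54 and 13.30 on the empty vector arrays. Here the groups overlapped, and the 95% interval of the difference was -0.23 to 0.16.

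The signalling chains had higher values on every IKZF1 array than on any empty vector array, as 15.2% of all genes did. Neither chain passed in limma, with or without the replicate block. Cd79b, for the CD79B chain, read 13.60, 13.61 and 13.50 on the IKZF1 arrays and 13.37, 13.41 and 13.26 on the empty vector arrays, a difference of 0.23 ± 0.07 (SE, n = 3 per group; limma adjusted p = 0.155). With the replicate number as a random block Cd79b passed, with an adjusted p of 0.0465 in limma. Cd79a, for its partner CD79A, read 13.36, 13.34 and 13.42 on the IKZF1 arrays and 13.33, 13.29 and 13.32 on the empty vector arrays. For Cd79a, IKZF1 2 and empty vector 1 nearly met. Its difference of 0.06 was small, with a 95% interval of -0.07 to 0.19 (limma adjusted p = 0.584). The within-array value of Cd79b minus Cd79a averaged 0.19 ± 0.10 on the IKZF1 arrays and 0.03 ± 0.09 on the empty vector arrays (SD, n = 3 each), and the groups overlapped (exact permutation p = 0.2).

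**Figure D2:**
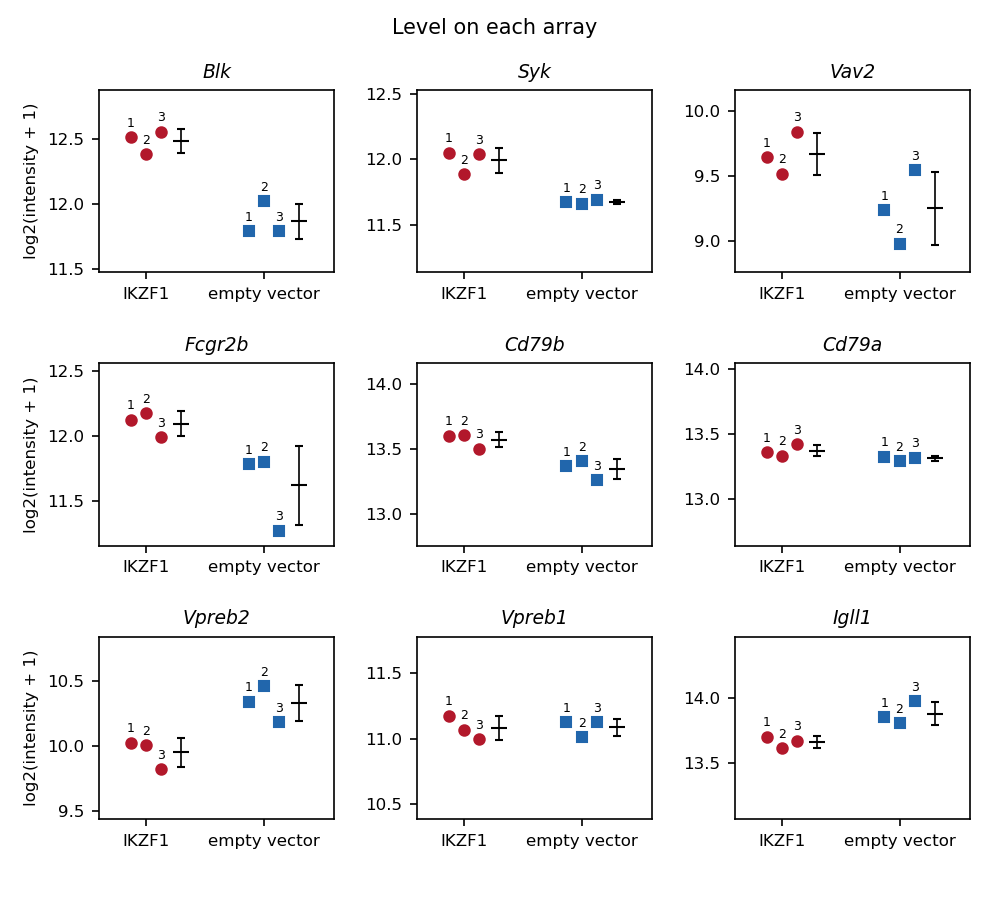
Log2(intensity + 1) of 9 members on each array, IKZF1 arrays as red circles on the left and empty vector arrays as blue squares on the right, numbered by replicate, with the mean ± SD of each group (n = 3) beside them. Every panel spans the same range of log2 values. Blk and Syk lie higher and Vpreb2 and Igll1 lower on all IKZF1 arrays, while Vpreb1 overlaps between the groups.

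Of 7 measured protein kinase genes, 1 rose and 6 did not pass, where 2.25% of all genes passed. With the block 2 were higher, against 3.36% of all genes. Blk, a Src family kinase of B-lineage cells, read 12.52, 12.38 and 12.56 on the IKZF1 arrays and 11.79, 12.02 and 11.79 on the empty vector arrays. All IKZF1 arrays were above all empty vector arrays, and Blk was 1.53-fold higher, a log2 difference of 0.62 ± 0.09 (SE, n = 3 per group; limma adjusted p = 0.0284). The pairs of equal number differed by 0.72, 0.36 and 0.76. Blk no longer passed when one of IKZF1 1, IKZF1 2, IKZF1 3 or empty vector 1 was left out (adjusted p = 0.129, 0.0749, 0.111 and 0.164), with differences of 0.58 to 0.67.

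Syk, the kinase that binds the phosphorylated CD79 tails, read 12.05, 11.88 and 12.04 on the IKZF1 arrays and 11.67, 11.66 and 11.69 on the empty vector arrays. The 3 empty vector values lay close together, and every IKZF1 value was above them. The difference was 0.32 ± 0.07 (SE, n = 3 per group), with an adjusted p of 0.0690 in limma and 0.0471 with the replicate block, and 0.0201 to 0.278 over all alternatives. Prkcb, the protein kinase C beta gene that links the receptor to NF-kB, read 12.54, 12.47 and 12.57 on the IKZF1 arrays and 12.32, 12.26 and 12.34 on the empty vector arrays. Its groups did not overlap either, and its difference of 0.22 ± 0.06 (SE, n = 3 per group) had a limma adjusted p of 0.124. With the replicate block the limma adjusted p of Prkcb was 0.0834, and with the random block 0.0370.

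The other kinase genes showed no difference beyond the spread. The differences were -0.06 for the Src family kinase gene Fyn, -0.03 for Fgr, -0.03 for Csk, whose product inhibits Src family kinases, and -0.04 for Btk, the Tec family kinase that activates phospholipase C gamma 2. All 4 had overlapping groups and adjusted p between 0.820 and 0.883. The widest of their 95% intervals was that of Fyn, -0.38 to 0.25, so a change of the size seen for Blk lies outside those of Fyn, Csk and Btk. The interval of Fgr cannot be read in this way, because Fgr lay within the background.

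Of 8 adaptor genes 0 passed in limma, with or without the replicate block, while 1 reached an unadjusted p below 0.05 (median difference 0.00). That gene was Bank1, a scaffold that binds LYN and calcium channels in B cells, at 10.66, 10.64 and 10.83 on the IKZF1 arrays and 9.89, 9.73 and 10.60 on the empty vector arrays. Every IKZF1 value was above every empty vector value, but empty vector 3 came close to them. The difference was 0.63 ± 0.22 (SE, n = 3 per group; adjusted p = 0.209), and without empty vector 3 it was 0.90, with an adjusted p of 0.00684 (range over all alternatives 0.00684 to 0.513).

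Lat2, the adaptor that stands in for LAT in B cells and myeloid cells, was the most variable member, at 8.55, 8.60 and 7.85 on the IKZF1 arrays and between 7.04 and 9.05 on the empty vector arrays. The empty vector values thus reached past the IKZF1 values on both sides, and the difference of 0.31 turned to -0.19 without empty vector 3. Blnk, the central adaptor of the receptor, differed by 0.13 (95% interval -0.06 to 0.32). Dapp1, whose product binds membrane phosphoinositides, differed by 0.07, and Pik3ap1, an adaptor for phosphoinositide 3-kinase, by -0.06. The differences of Grb2 and Shc1, adaptors of the Ras pathway, were -0.07 and -0.10, and that of Sh3bp2, which binds SYK and VAV proteins, was -0.23. Of these genes only Shc1 had groups that did not overlap, and adjusted p of the 6 lay between 0.412 and 0.852. Sh3bp2 differed by -0.39 without empty vector 3 (adjusted p = 0.0914) and by -0.097 without empty vector 2. Without empty vector 3 the signs of Grb2, Pik3ap1 and Dapp1 turned as well, to 0.0048, 0.10 and -0.032.

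Among 7 lipid enzyme and effector genes 0 passed without the block and 1 passed with it, where 7.21% of all genes passed with it. Of the differences, 6 were above 0 (median 0.12). Vav2, a guanine nucleotide exchange factor, read 9.65, 9.52 and 9.84 on the IKZF1 arrays and 9.24, 8.98 and 9.54 on the empty vector arrays. The groups overlapped by 1 pair of arrays, IKZF1 2 and empty vector 3, but each IKZF1 array lay above the empty vector array of its number, by 0.41, 0.54 and 0.30. The difference was 0.41 ± 0.15 (SE, n = 3 per group), with a limma adjusted p of 0.231, and of 0.0323 with the replicate block (0.0323 to 0.51 over all alternatives). With the random block Vav2 did not pass (limma adjusted p = 0.0666). The 250 bases before its start, chr2:27427609-27427858 on the minus strand, are shown because Vav2 passed with the block; the capitals mark 3 matches to GGGAA, read on the opposite strand.
Vav2: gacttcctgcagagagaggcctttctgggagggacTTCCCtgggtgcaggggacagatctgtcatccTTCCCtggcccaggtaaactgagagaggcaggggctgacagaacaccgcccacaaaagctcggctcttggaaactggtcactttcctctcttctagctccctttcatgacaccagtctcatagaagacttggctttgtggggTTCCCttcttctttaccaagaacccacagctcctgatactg
Its relative Vav1, the main form in blood cells, differed by 0.12 (adjusted p = 0.601), and its sign turned, to -0.0020, without empty vector 3.

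The 2 phosphoinositide 3-kinase subunit genes among the members lay on opposite sides of 0. Other subunit genes, outside the members, differed by 0.066 (Pik3ca), -0.065 (Pik3cb), 0.15 (Pik3cg), 0.20 (Pik3r2) and 0.86 (Pik3r5). Pik3cd, the catalytic p110 delta subunit of white blood cells, read 12.36, 12.41 and 12.38 on the IKZF1 arrays and 12.20, 12.17 and 12.13 on the empty vector arrays. The regulatory subunit gene Pik3r1 read 11.04, 10.86 and 11.02 on the IKZF1 arrays and 11.14, 11.16 and 11.15 on the empty vector arrays. Neither had overlapping groups: the differences were 0.22 ± 0.05 for Pik3cd and -0.18 ± 0.07 for Pik3r1 (SE, n = 3 per group), with limma adjusted p of 0.106 and 0.250. With the random block Pik3cd passed, with an adjusted p of 0.0356 in limma, but not with the replicate block (0.0913).

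Plcg2, the phospholipase that releases calcium and activates protein kinase C, read 12.04, 12.10 and 11.91 on the IKZF1 arrays and 12.13, 12.25 and 11.37 on the empty vector arrays. Only empty vector 3 lay below the IKZF1 values, and the difference was 0.09 with that array and -0.18 without it (adjusted p = 0.839 and 0.339). Bcl10 and Malt1, which form the complex that passes the signal to NF-kB, differed by 0.015 and 0.12 (adjusted p = 0.947 and 0.688). The sign of Malt1 turned to -0.030 without empty vector 3.

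**Figure D3:**
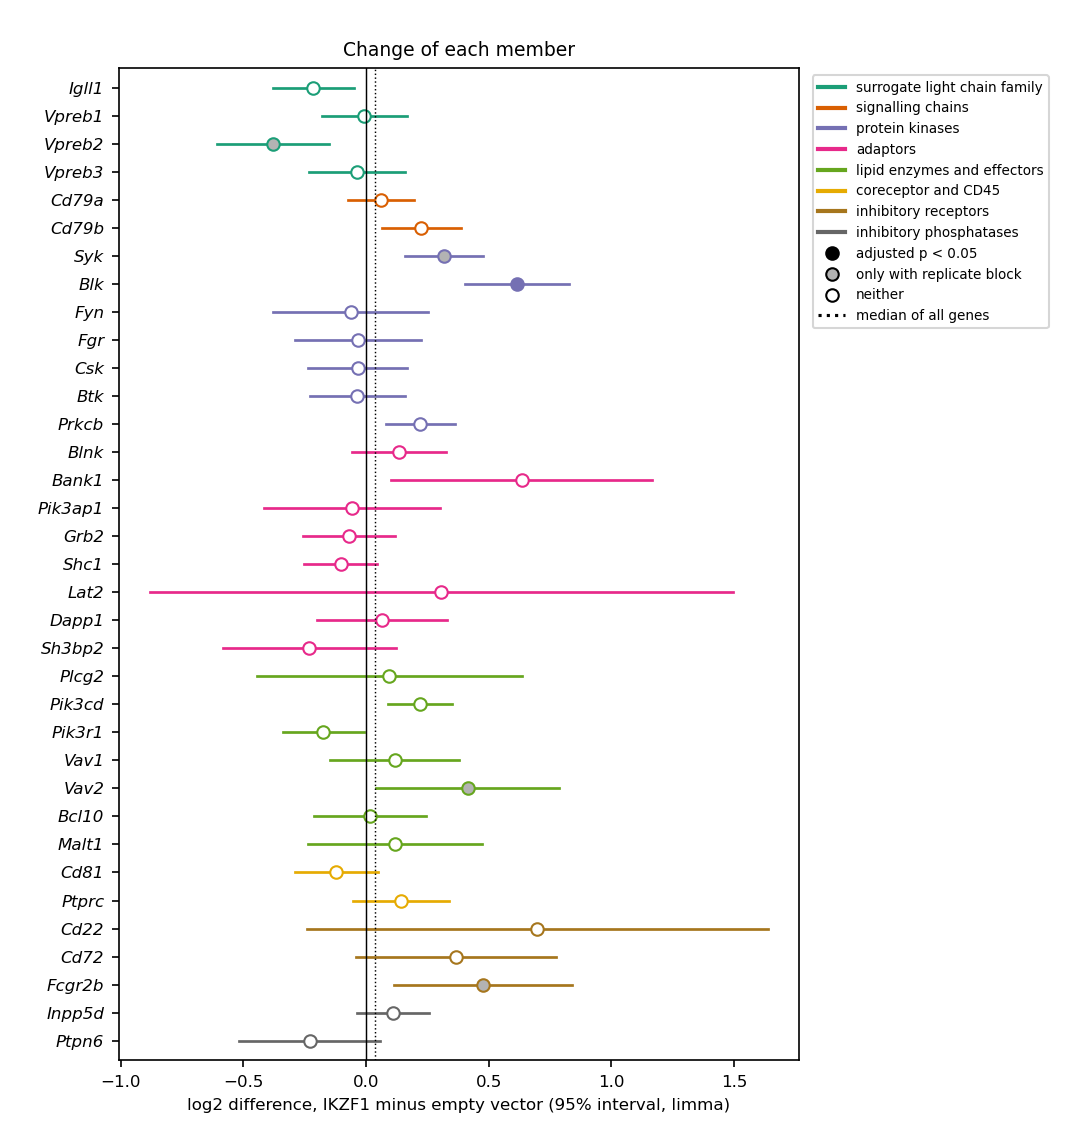
Log2 difference of each member, IKZF1 minus empty vector, with its 95% interval from limma (n = 3 arrays per group), coloured by role. Filled points passed the adjusted p of 0.05 over all genes (Blk), grey points passed only with the replicate block (Vpreb2, Syk, Vav2, Fcgr2b), and the dotted line is the median of all genes at 0.03.

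Cd81, a tetraspanin of the coreceptor complex, differed by -0.12 and Ptprc, the gene of the phosphatase CD45 that activates Src family kinases, by 0.14 (adjusted p = 0.408 and 0.402). Ptprc read 12.04, 12.02 and 12.05 on the IKZF1 arrays and 11.93, 12.01 and 11.74 on the empty vector arrays. Its groups did not overlap, though empty vector 2 came close to the IKZF1 values, and without empty vector 3 the difference was 0.06.

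The inhibitory receptor genes had the highest median difference of the 8 roles, 0.48 with all arrays and 0.30 without empty vector 3, which was low for all 3 of them. All 3 were positive, 0 passed without the block and 1 passed with it, where 7.21% of all genes passed with it. Fcgr2b, the inhibitory Fc receptor for immunoglobulin G, read 12.12, 12.18 and 11.99 on the IKZF1 arrays and 11.79, 11.80 and 11.27 on the empty vector arrays. Its groups did not overlap, and the difference of 0.48 ± 0.15 (SE, n = 3 per group) had a limma adjusted p of 0.175, and of 0.0427 with the replicate block. With the random block Fcgr2b did not pass (limma adjusted p = 0.0530). Without empty vector 3 the difference was 0.30, with an adjusted p of 0.0991, and over all alternatives the adjusted p ran from 0.0427 to 0.399. The 250 bases before its start, chr1:170976072-170976321 on the minus strand, are shown for the same reason as those of Vav2, with 2 matches to GGGAA on the opposite strand in capitals.
Fcgr2b: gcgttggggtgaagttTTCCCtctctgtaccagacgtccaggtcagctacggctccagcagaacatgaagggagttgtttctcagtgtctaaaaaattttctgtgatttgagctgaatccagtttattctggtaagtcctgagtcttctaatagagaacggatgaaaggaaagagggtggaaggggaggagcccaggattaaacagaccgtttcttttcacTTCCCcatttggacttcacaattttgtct
The windows of Syk, which also passed with the block, hold no GGGAA. For Blk, Cd79b, Lat2 and Malt1 no upstream sequence was at hand. A match to GGGAA is a description of the letters and not of binding.

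Cd72, an inhibitory C-type lectin, read 11.68, 11.78 and 11.61 on the IKZF1 arrays and 11.44, 11.60 and 10.93 on the empty vector arrays. The groups did not overlap, though IKZF1 3 and empty vector 2 nearly met, and the difference was 0.37 with all arrays and 0.17 without empty vector 3 (adjusted p = 0.314 and 0.359). Cd22, a sialic acid-binding inhibitor of B cell receptor signalling, read 9.08, 9.30 and 8.75 on the IKZF1 arrays and 8.27, 9.19 and 7.57 on the empty vector arrays. Empty vector 2 lay inside the IKZF1 range and empty vector 3 far below it. The difference of 0.70 had a 95% interval of -0.24 to 1.64 (adjusted p = 0.391). It was 0.31 without empty vector 3 and 1.12 without empty vector 2 (adjusted p = 0.591 and 0.114).

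The phosphatases that these receptors recruit did not follow in one direction. Inpp5d, which encodes SHIP-1, differed by 0.11 with groups that did not overlap (adjusted p = 0.393). Ptpn6, which encodes SHP-1, differed by -0.23 with overlapping groups (adjusted p = 0.362), and by -0.35 without empty vector 3 (adjusted p = 0.0971) and -0.14 without empty vector 2. The difference of one role from another was not tested.

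**Figure D4:**
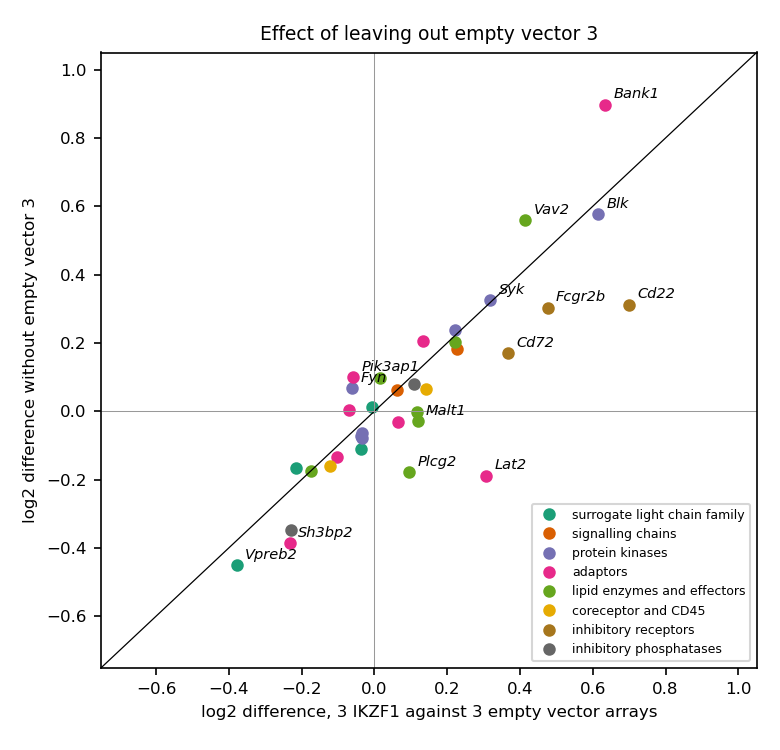
Log2 difference of each member, IKZF1 minus empty vector, with all 6 arrays (horizontal axis) and without empty vector 3 (vertical axis), coloured by role; the diagonal marks equal values. Cd22, Cd72 and Fcgr2b lie below the diagonal, Bank1 and Vav2 above it, and Plcg2 and Lat2 turn from above 0 to below 0.

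Beyond the members, 89 further genes of the pathway were read from lists, of which 75 were measured: 3 rose, 1 fell and 71 did not pass, a share of 5.33% called, against 2.25% of all genes. Their median difference was 0.07, against 0.03 for all genes. With the replicate block 9 of the 75 were higher, against 3.36% of all genes, and 3 lower, against 3.85% (12 in all, against 7.21%). Among 26 measured genes listed as further inhibitors 2 rose and 24 did not pass, and 6 were higher with the block. Empty vector 3 differed from the mean of the other empty vector arrays by over 0.5 for 10 of these 26 genes. That is a share of 38.5%, against 8.39% of all genes. Inppl1, which encodes SHIP-2, a relative of the SHIP-1 member above, read 11.83, 11.87 and 11.87 on the IKZF1 arrays and 10.98, 10.83 and 11.06 on the empty vector arrays, well apart. It was higher by 0.90 ± 0.07 (SE, n = 3 per group; limma adjusted p = 0.00663), and no longer passed without IKZF1 1 or without empty vector 1 (adjusted p = 0.0527 and 0.0568). Pirb, an inhibitory immunoglobulin-like receptor of B cells and myeloid cells, was higher by 1.72 ± 0.24 (SE, n = 3 per group; adjusted p = 0.0267), but its empty vector level of 5.62 lay within the background.

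The other 4 genes of the inhibitor list that passed only with the block were named after their values were seen, and all had groups that did not overlap. Dok3, an adaptor that damps B cell receptor signals, differed by 0.90 (limma adjusted p = 0.0928, and 0.0233 with the block), and Siglecg, an inhibitory lectin, by 0.69 (0.0817, and 0.0287 with the block). Cblb, a ubiquitin ligase that limits receptor signalling, differed by 0.36 (limma adjusted p = 0.0739, and 0.0332 with the block). Fcrl1, in the inhibitor list but known in human B cells as an activating receptor, differed by 0.49 (limma adjusted p = 0.180, and 0.0299 with the block). Without empty vector 3 the differences were 0.65 for Dok3, 0.87 for Siglecg, 0.33 for Cblb and 0.32 for Fcrl1. Over all alternatives the highest adjusted p of these genes lay between 0.262 and 0.403.

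Pik3r5, a regulatory subunit of the gamma form of phosphoinositide 3-kinase, read 9.87, 10.16 and 9.91 on the IKZF1 arrays and 9.17, 9.28 and 8.93 on the empty vector arrays. The groups were apart, by 0.86 ± 0.12 on average (SE, n = 3 per group; limma adjusted p = 0.0260). Pdpk1, the kinase that activates AKT, differed by -0.17 (adjusted p = 0.178).

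In the calcium list 1 of 11 genes fell and 10 did not pass, where 1.13% of all genes fell. With the block 2 were lower, against 3.85% of all genes. Orai1, the calcium channel of the plasma membrane, read 8.39, 8.28 and 8.40 on the IKZF1 arrays and 8.96, 9.03 and 8.75 on the empty vector arrays, a difference of -0.55 ± 0.09 (SE, n = 3 per group; limma adjusted p = 0.0368). All IKZF1 arrays were lower. Ppp3cb, a catalytic subunit gene of calcineurin, differed by -0.24 (limma adjusted p = 0.0816, 0.0763 with the replicate block and 0.0269 with the random block). Ppp3r1, the regulatory subunit gene, was the other one lower with the block, at -0.32 (adjusted p = 0.239 in limma, and 0.0462 with the block, with 0.505 the highest over all alternatives). Ppp3r1 was named after its value was seen, and did not pass with the random block (limma adjusted p = 0.0719). Pirb and Pik3r5 did not pass without IKZF1 1, IKZF1 2 or empty vector 1, nor Pirb without empty vector 2 or Pik3r5 without IKZF1 3 (adjusted p from 0.0675 to 0.150). Orai1 passed in 1 of the 6 fits that left out an array, the one without empty vector 3.

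Of 10 measured Ras and MAPK genes 0 passed without the block and 2 were higher with it, where 7.21% of all genes were called with it. At an unadjusted p of 0.05, 5 of the 10 passed, where 18.4% of all genes did. Both genes that were higher with the block encode exchange factors that activate Ras downstream of phospholipase C. Rasgrp1 read 12.42, 12.55 and 12.22 on the IKZF1 arrays and 11.60, 11.75 and 10.94 on the empty vector arrays, and differed by 0.97 (limma adjusted p = 0.0817, and 0.0142 with the replicate block). Rasgrp3 read 7.90, 7.59 and 8.46 on the IKZF1 arrays and 6.63, 6.98 and 6.68 on the empty vector arrays, and differed by 1.22 (adjusted p = 0.0502, and 0.0323 with the block). Among 13 measured coreceptors and further proximal kinases 0 passed without the block and 1 was lower with it. That gene, Cr2, the complement receptor of the B cell coreceptor complex, was named after its value was seen. It differed by -1.18 with groups that did not overlap (limma adjusted p = 0.119, and 0.0399 with the block, with a range of 0.0316 to 0.365 over all alternatives). The smallest p there were those of the kinase genes Prkcd (0.29, adjusted p = 0.0548) and Map3k7 (0.25, adjusted p = 0.0748). Both passed in limma with the random block (adjusted p = 0.0168 and 0.0228). With the replicate block neither passed (limma adjusted p = 0.0524 and 0.0665).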

How the data were processed

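The authors deposited 1 linear intensity per probe set and array (11.1 to 23523), made with RMA, per the submitters' processing notes; the sources used here give no version or settings. RMA's between-array normalization reduces shifts common to most genes. Intensities carry no read depth, and 3 arrays per group limit the precision. From them log2(intensity + 1) was computed. Of 35421 probe sets, 21789 have 1 symbol, 1621 several and 12011 are unnamed here; the brightest stood for a gene, with no filter on level. The test was limma's (version 3.58.1, R 4.3.3; lmFit and eBayes, 2-sided), with Benjamini-Hochberg adjustment over 19936 genes; the code was tested on simulated data. The titles number the arrays without saying what the numbers mark. Same-numbered arrays' deviations from their group means correlated with r = 0.24, 0.60 and 0.66 across genes. All exceed 0.1, so the titles' numbers were taken as pairs, and blocked values are given where they change a call. IKZF1 2 with empty vector 1 also reached 0.11, and the other unlike-numbered arrays ran from -0.68 to -0.029. Upstream sequences are RefSeq's (GRCm38.p6; 31 members matched). All members are named; other pathway genes were named if past the threshold or among the 2 smallest p of a list. Members and lists were chosen with earlier results of these data known. Alternatives are listed in the closing section.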

Additional observations from a re-analysis of the deposited data

How the results depend on the processing

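The count of called genes was 448, with 1438 under the replicate block, 1664 under a random replicate block and 24 to 947 when 1 array was left out. The members called were 1, with 5 under the block, 6 under the random block (Vpreb2, Cd79b, Syk, Blk, Prkcb and Pik3cd), 2 after quantile normalization (Syk and Blk) and 0 to 3 without 1 array. The other pathway genes called were 4, with 12, 14 and, for a pseudocount of 16, 7, and 0 to 12 without 1 array. Ikzf1 passed in all 14 alternatives, with differences of 1.18 to 1.28. Of the 35 members, 26 passed in none of the fits. Signs turned for Vpreb1 and Vpreb3 after quantile normalization (0.010 and 0.033) and for Bcl10 with arrays centred on their medians (-0.028). Without 1 array the differences ran from -0.056 to 0.035 for Vpreb1, -0.11 to 0.0091 for Vpreb3, -0.060 to 0.097 for Bcl10, -0.082 to 0.033 for Btk, -0.084 to 0.034 for Csk, -0.032 to 0.16 for Dapp1, -0.13 to 0.052 for Fgr, -0.16 to 0.068 for Fyn, -0.11 to 0.0048 for Grb2, -0.19 to 0.82 for Lat2, -0.030 to 0.27 for Malt1, -0.16 to 0.10 for Pik3ap1, -0.18 to 0.26 for Plcg2 and -0.0020 to 0.18 for Vav1. Orai1 did not pass with the intensity trend (adjusted p = 0.0506 in limma). A change of background correction was not run, since scanner files were not used here. Leaving out 1 array also moved, with no turn of sign, Cd22 (0.31 to 1.12), Cd72 (0.17 to 0.50), Fcgr2b (0.30 to 0.57), Ptprc (0.064 to 0.20), Blnk (0.082 to 0.20), Cd79a (0.036 to 0.080), Sh3bp2 (-0.39 to -0.097), Ptpn6 (-0.35 to -0.14), Shc1 (-0.13 to -0.060), Pik3r1 (-0.21 to -0.12) and Cd81 (-0.16 to -0.070). Leaving out empty vector 3 turned the sign of 9 members. The intensity trend in the prior, median centring, the pseudocount of 16, the limit to bright genes and the mean of probe sets left the count of called members at 1. The cause of these changes was not tested. Signal near background limits Fgr, Pirb and other dim probe sets.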
